A study of Mus musculus with 8 samples.

Results

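The secreted modulators of WNT signalling examined here are 10 genes, chosen by symbol among the 48607 loci of the deposited table: the SFRP family members Sfrp1, Sfrp2, Sfrp4, Sfrp5 and Frzb, the inhibitors Wif1, Dkk2 and Dkk3, the ligand Wnt5a and the agonist Rspo3. A locus was taken when its gene name field named the gene. For Dkk3, which names 2 loci, the locus with 97.3% of their joint counts was used, and each of the other 9 genes names 1 locus.

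The data are RNA sequencing of whole aortas from mice fed a Western diet, high in fat and cholesterol, for 12 weeks. By title, 5 libraries are ApoE-/- (numbered 1 to 5) and 3 are NPRC-/-ApoE-/- (1 to 3), whereas the study describes 5 mice in each group. Mice of both groups lack ApoE, the apolipoprotein whose loss leads to high plasma cholesterol and atherosclerosis. The NPRC-/-ApoE-/- mice also carry, in every cell of the body, a CRISPR frameshift in exon 1 of Npr3, which encodes the natriuretic peptide clearance receptor NPRC, made in C57BL/6 mice. ApoE-/- mice were purchased as males of 8 weeks. The age and sex of the sequenced animals are not given separately in the sources used here. The genotype entry of a library conflicts with its title for 4 of the 8 libraries: the titles ApoE-/- 4 and 5 go with the entry NPRC-/-ApoE-/-, and the titles NPRC-/-ApoE-/- 1 and 2 with the entry ApoE-/-. The members are therefore compared under both labels, and so are the marker lists and pathway genes set beside them. Npr3 cannot settle the matter, since a frameshift need not change the amount of transcript: its level ranged from 0.62 to 1.69 FPKM under the title ApoE-/- and from 1.13 to 1.39 FPKM under the title NPRC-/-ApoE-/-. FPKM counts fragments relative to transcript length and to the number of mapped fragments, and levels of different genes are compared only on this scale.

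WNT proteins are secreted lipid-modified ligands that bind Frizzled receptors, with LRP5 or LRP6 as coreceptors for the branch that stabilises β-catenin. Secreted modulators tune this signal outside the cell. SFRP proteins and WIF1 bind the WNT ligands themselves, DKK proteins of the classical type bind the LRP coreceptors, and R-spondins raise the amount of receptor at the cell surface through LGR receptors and the ubiquitin ligases ZNRF3 and RNF43. In the vessel wall these molecules are made mainly by mesenchymal cells, such as smooth muscle cells and adventitial fibroblasts.

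RefSeq promoter sequences (GRCm38.p6) were at hand for 5 of the 10 genes, namely Sfrp2, Sfrp5, Frzb, Dkk2 and Wif1. The 250 bases before the start site are shown for Sfrp5, the member with the largest difference between the titled groups, and for Sfrp2, its paralog with the highest level, on the strand of each gene. The Sfrp5 stretch is chr19:42202253-42202502 on the minus strand, and the Sfrp2 stretch is chr3:83766071-83766320 on the plus strand. Capitals mark matches to the GC box (GGGCGG) and to an E-box (CACCTG), searched on both strands.
Sfrp5 promoter: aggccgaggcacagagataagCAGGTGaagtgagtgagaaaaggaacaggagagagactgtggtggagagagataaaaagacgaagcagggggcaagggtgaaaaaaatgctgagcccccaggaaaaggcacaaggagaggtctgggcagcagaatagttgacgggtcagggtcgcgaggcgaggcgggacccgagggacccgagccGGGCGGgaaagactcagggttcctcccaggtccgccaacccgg
Sfrp2 promoter: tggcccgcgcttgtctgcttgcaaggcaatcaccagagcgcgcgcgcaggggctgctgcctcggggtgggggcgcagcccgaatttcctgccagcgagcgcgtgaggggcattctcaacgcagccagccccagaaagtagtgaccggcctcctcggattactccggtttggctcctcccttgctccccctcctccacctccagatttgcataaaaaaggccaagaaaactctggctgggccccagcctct
The Sfrp5 window of 300 bases, which runs 50 bases past the start, held the GC box 2 times, once beginning at position -43 and once at -1, where -1 is the base just before the start site, and the E-box once. Sfrp2 held neither. The GC box occurred in 35.7% and this E-box in 20.2% of 32851 RefSeq promoter windows of that length. Neither held the core of the TCF/LEF motif (CTTTGAT), the factors that act with β-catenin, which 3.73% of all windows held on either strand, and the same was true of Frzb, Dkk2 and Wif1. The GC content of the Sfrp5 window was 61.3% and that of Sfrp2 66.0%, against a median of 52.7% over all windows. These matches describe letters and were not tested as binding sites.

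All 10 loci had the start and end of the GENCODE M21 gene in GRCm38. The loci of Sfrp1 (chr8:23411502-23449632), Sfrp4 (chr13:19623104-19632994), Frzb (chr2:80411970-80447625), Wif1 (chr10:121033960-121100650), Dkk2 (chr3:132085292-132180304) and Dkk3 (chr7:112116017-112159057) overlapped no other annotated gene, nor did that of Sfrp5 (chr19:42197971-42202252). Those of Sfrp2 (chr3:83766321-83774316), Wnt5a (chr14:28504750-28527448) and Rspo3 (chr10:29452416-29535867) each overlap an antisense gene, and Rspo3 also a gene on its own strand. Whether counting used the strand is not given in the sources used here, so reads of these partners may be included. For Sfrp1 and Sfrp5, the only annotated transcript has 3 exons and a coding sequence of 314 codons in each case. For Sfrp4, 1 of its 4 protein-coding transcripts was taken, with 5 exons and 365 codons.

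The 10 transcripts differed widely in abundance on the per-length scale. Sfrp2 had the highest mean level, 80.7 ± 19.0 FPKM (SD, n = 8 libraries), followed by Dkk3 with 53.6 ± 7.81, Frzb with 30.5 ± 19.5, Sfrp4 with 28.4 ± 17.5 and Sfrp1 with 19.5 ± 3.99. Sfrp5 (2.98 ± 1.51), Wnt5a (2.62 ± 0.958) and Wif1 (1.46 ± 0.653) were low, and Rspo3 (0.603 ± 0.175) and Dkk2 (0.544 ± 0.267) lowest. Sfrp2 exceeded Dkk3 in 7 of 8 libraries and Dkk3 exceeded Frzb in 7, whereas Frzb exceeded Sfrp4 in 4 and Sfrp4 exceeded Sfrp1 in 6. The step from Sfrp1 down to Sfrp5 held in all 8 libraries. Sfrp5 was above Wnt5a in 3 libraries, and Rspo3 above Dkk2 in 4, so neither of these neighbours can be ordered. Dkk3 varied least, with a highest library 1.56 times the lowest, while Sfrp4 and Frzb ranged 5.23-fold and 5.41-fold and the low Dkk2 9.18-fold. Of the 10 genes, 8 reached the minimum for testing, 1 FPKM in at least 3 libraries, and Dkk2 and Rspo3 did not.

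**Figure D1:**
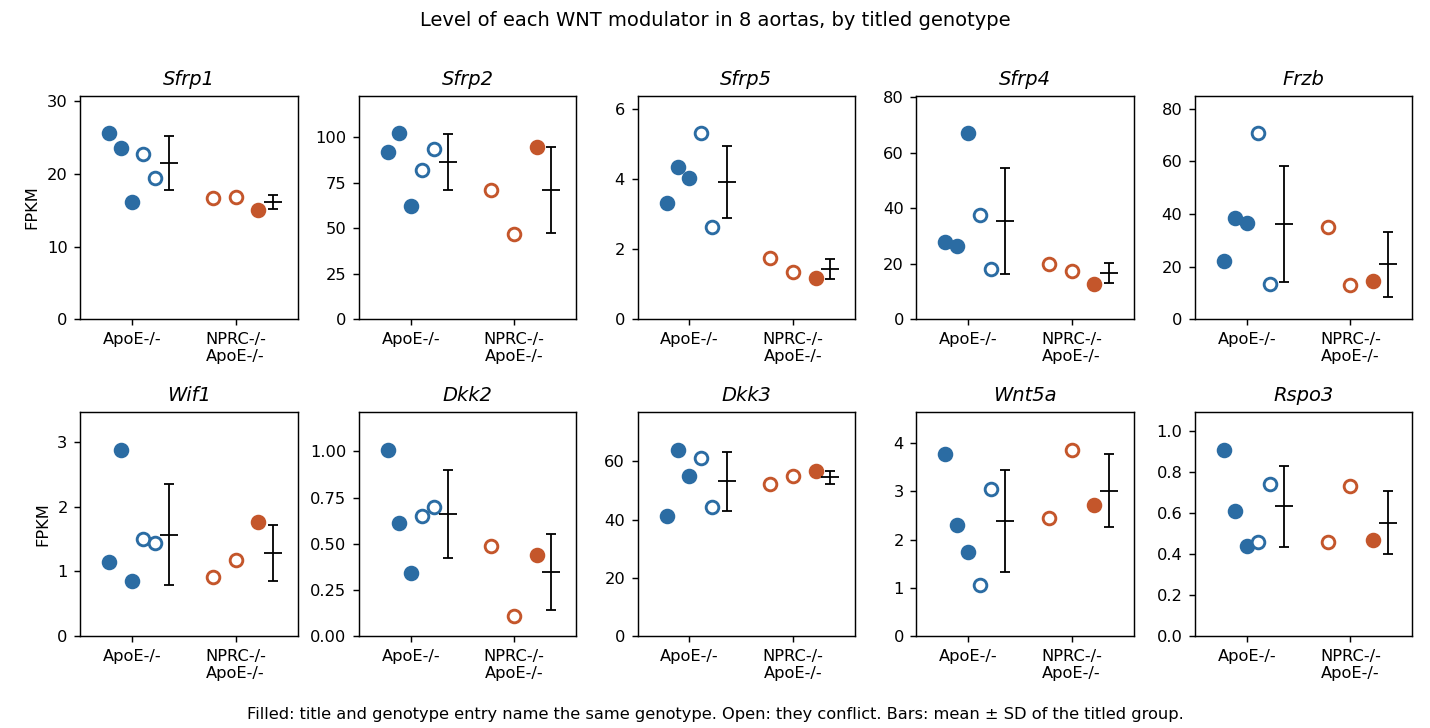
FPKM (y axis) of the 10 WNT modulators in each library, by titled genotype (x axis); filled points have agreeing labels, open points conflicting ones, and bars give mean ± SD of 5 ApoE-/- and 3 NPRC-/-ApoE-/- libraries. In the panel of Sfrp5 the 3 NPRC-/-ApoE-/- points, at 1.18 to 1.74, lie below the 5 ApoE-/- points, at 2.62 to 5.31.

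Grouped by title, the SFRP family was the group of members in which differences met the criterion of the study, an unadjusted p-value under 0.05 together with a change of more than 2-fold in either direction. Of the 8 tested members 2 met it, Sfrp5 and Sfrp4, both lower in NPRC-/-ApoE-/-. Over all 20506 tested loci, 2.39% met it in this direction. With an unadjusted p-value under 0.05 alone, 3 of the 8 were lower, against 7.13% of all loci. In the other direction 0 of the 8 were higher, against 1335 of 20506 loci. After Benjamini-Hochberg adjustment over all tested loci, 0 members passed 0.05 in edgeR's quasi-likelihood test. With the same adjustment, 1 (Sfrp5) did with limma's array quality weights (adjusted p = 0.027). DESeq2, which by default filters loci itself before it adjusts, also gave 1 (Sfrp5, adjusted p = 0.00015). The median log2 fold change of the 8 members was -0.31, and that of all tested loci -0.01.

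Sfrp5, a decoy receptor closely related to Sfrp1 and known as an adipose tissue product that binds WNT5A, had 3.31, 4.33, 4.03, 5.31 and 2.62 FPKM in ApoE-/- 1 to 5. In NPRC-/-ApoE-/- 1 to 3 it had 1.74, 1.35 and 1.18 FPKM. Every library titled NPRC-/-ApoE-/- was lower than every library titled ApoE-/-, which in this direction occurred for 3.69% of tested loci on the log2 CPM scale (counts scaled to library size). The level was 2.75-fold lower (log2 fold change -1.46, standard error 0.28, unadjusted p = 0.00056, adjusted p = 0.20 with edgeR). In whole tissue, fewer cells that make a transcript and less of it per cell cannot be told apart. The difference kept its side of the criterion without any single library, between -1.60 and -1.30. By genotype entry it was 0.07 (standard error 0.53, adjusted p = 1.0 with edgeR). The 3 libraries with that entry included both the highest (5.31 FPKM) and the lowest (1.18 FPKM) of all 8.

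Sfrp4, another secreted Frizzled-related protein, had 27.64, 26.49, 67.10, 37.68 and 18.18 FPKM in ApoE-/- 1 to 5 and 19.81, 17.30 and 12.82 FPKM in NPRC-/-ApoE-/- 1 to 3. The titled groups overlapped, because ApoE-/- 5 lay below NPRC-/-ApoE-/- 1, and ApoE-/- 3 stood highest. The level was 2.16-fold lower by title (log2 fold change -1.11, standard error 0.43, unadjusted p = 0.030, adjusted p = 0.33 with edgeR). The criterion was no longer met without ApoE-/- 3 (-0.70), ApoE-/- 4 (-1.08), NPRC-/-ApoE-/- 2 (-1.10) or NPRC-/-ApoE-/- 3 (-0.96). By genotype entry the log2 fold change of Sfrp4 was -0.45 (standard error 0.54, adjusted p = 1.0 with edgeR).

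Sfrp1, a secreted decoy for WNT ligands with a domain like that of the Frizzled receptors, had 25.64, 23.57, 16.07, 22.77 and 19.50 FPKM in ApoE-/- 1 to 5 and 16.65, 16.80 and 15.09 FPKM in NPRC-/-ApoE-/- 1 to 3. The 3 libraries titled NPRC-/-ApoE-/- were close together, and on the FPKM scale only ApoE-/- 3 fell among them. On the log2 CPM scale the titled groups did not overlap, as for 3.69% of tested loci in this direction. The gap was narrow, from 6.53 in ApoE-/- 3 to 6.48 in NPRC-/-ApoE-/- 2. The log2 fold change was -0.39 by title (standard error 0.15, unadjusted p = 0.029, adjusted p = 0.33 with edgeR), a 1.31-fold difference that stayed below the 2-fold limit. By genotype entry it was -0.01 (standard error 0.20).

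Sfrp2, the most abundant member, did not pass the test under either label, with log2 fold changes of -0.24 by title (standard error 0.24, adjusted p = 0.67 with edgeR) and 0.30 by genotype entry (standard error 0.23). Its FPKM was 92.15, 102.42, 62.13, 82.02 and 93.63 in ApoE-/- 1 to 5 and 71.28, 47.06 and 94.63 in NPRC-/-ApoE-/- 1 to 3. The low value of NPRC-/-ApoE-/- 2 set the sign by title: without that library the log2 fold change was 0.02.

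Frzb, also called secreted frizzled-related protein 3 and best known from cartilage, had 21.96, 38.47, 36.47, 70.87 and 13.41 FPKM in ApoE-/- 1 to 5 and 35.05, 13.10 and 14.46 FPKM in NPRC-/-ApoE-/- 1 to 3. The groups overlapped, with ApoE-/- 4 far above and ApoE-/- 5 beside the lowest NPRC-/-ApoE-/- libraries. The log2 fold change was -0.82 by title (standard error 0.56, adjusted p = 0.54 with edgeR) and 0.24 by genotype entry (standard error 0.60). By title it ran from -0.39 without ApoE-/- 4 to -1.38 without NPRC-/-ApoE-/- 1, and with limma's array quality weights it met the criterion (-1.08, unadjusted p = 0.030, adjusted p = 0.13). Without ApoE-/- 4, Frzb met the criterion by genotype entry (-1.05, standard error 0.43, unadjusted p = 0.038, adjusted p = 0.85 with edgeR), and 0 members met it there with all 8 libraries.

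The summed level of the 5 SFRP family members was 171, 195, 186, 219 and 147 FPKM in ApoE-/- 1 to 5. In NPRC-/-ApoE-/- 1 to 3 it was 145, 95.6 and 138 FPKM, so that each of these sums was below the 5 others. The gap was narrow, from 147 FPKM in ApoE-/- 5 to 145 FPKM in NPRC-/-ApoE-/- 1. The sum over all 10 members overlapped by title. It was 197 FPKM in ApoE-/- 5 and 201, 156 and 200 FPKM in NPRC-/-ApoE-/- 1 to 3. By genotype entry the ranges of the family sum, 95.6 to 195 and 138 to 219 FPKM, overlapped. Sfrp2 made up 33.4 to 68.5% of the family sum and Sfrp4 9.28 to 36.1%. Sfrp5, at most 2.43%, took a smaller share in the 3 libraries titled NPRC-/-ApoE-/- (0.854 to 1.41%) than in the 5 titled ApoE-/- (1.78 to 2.43%). These sums and shares are descriptions of the members and were not tested.

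**Figure D2:**
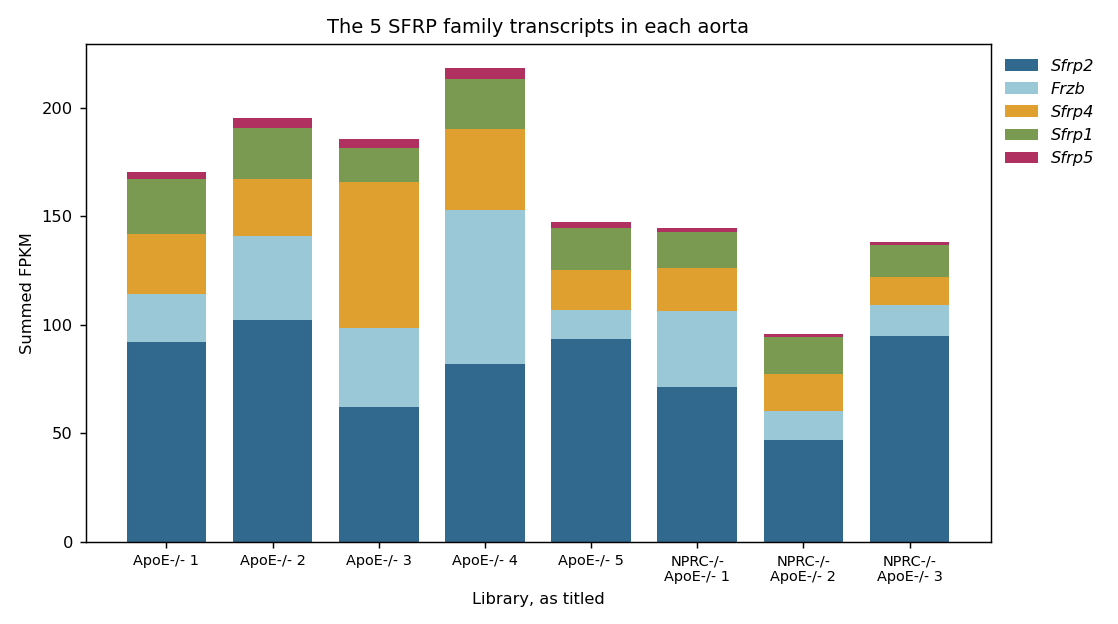
Summed FPKM (y axis) of the 5 SFRP family transcripts in each library (x axis, as titled), 1 colour per gene. Sfrp2 is the largest block in 7 of 8 bars, the exception being ApoE-/- 3, in which Sfrp4 reached 67.10 FPKM.

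Among the other inhibitors, Wif1, which binds WNT ligands through a domain unlike that of the SFRP proteins, had 1.15, 2.89, 0.85, 1.51 and 1.44 FPKM in ApoE-/- 1 to 5 and 0.92, 1.17 and 1.77 FPKM in NPRC-/-ApoE-/- 1 to 3. ApoE-/- 2 held the highest value. The log2 fold change of Wif1 was -0.24 by title (standard error 0.39, adjusted p = 0.81 with edgeR) and 0.22 by genotype entry. Dkk3, a divergent DKK protein that does not act as a classical LRP6 antagonist, had 41.09, 64.07, 54.98, 61.18 and 44.21 FPKM in ApoE-/- 1 to 5. It had 52.06, 54.92 and 56.62 FPKM in NPRC-/-ApoE-/- 1 to 3, within the range of the other group. The log2 fold change of Dkk3 was 0.05 by title and 0.06 by genotype entry (standard errors 0.19 and 0.20, adjusted p = 0.92 and 1.0 with edgeR).

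Dkk2, which binds LRP6, was below the minimum for testing, with 1.01, 0.61, 0.34, 0.65 and 0.70 FPKM in ApoE-/- 1 to 5 and 0.49, 0.11 and 0.44 FPKM in NPRC-/-ApoE-/- 1 to 3. Its counts ran from 31 in NPRC-/-ApoE-/- 2 to 370 in ApoE-/- 1. In a fit of all loci with any counts, Dkk2 had a log2 fold change of -0.88 by title (standard error 0.48, adjusted p = 0.53 with edgeR) and 0.27 by genotype entry.

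Wnt5a, the ligand of the branch that does not act through β-catenin, had 3.77, 2.30, 1.74, 1.06 and 3.05 FPKM in ApoE-/- 1 to 5 and 2.44, 3.87 and 2.72 FPKM in NPRC-/-ApoE-/- 1 to 3. Both groups held high values, and the lowest, in ApoE-/- 4, was the library in which Frzb was highest. The log2 fold change of Wnt5a was 0.38 by title (standard error 0.34, adjusted p = 0.63 with edgeR) and -0.28 by genotype entry (standard error 0.36). Rspo3, the agonist, had 0.44 to 0.91 FPKM (135 to 277 counts) in all 8 libraries and, without the filter, a log2 fold change of -0.15 under either label (standard errors 0.29 by title and 0.30 by genotype entry).

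**Figure D3:**
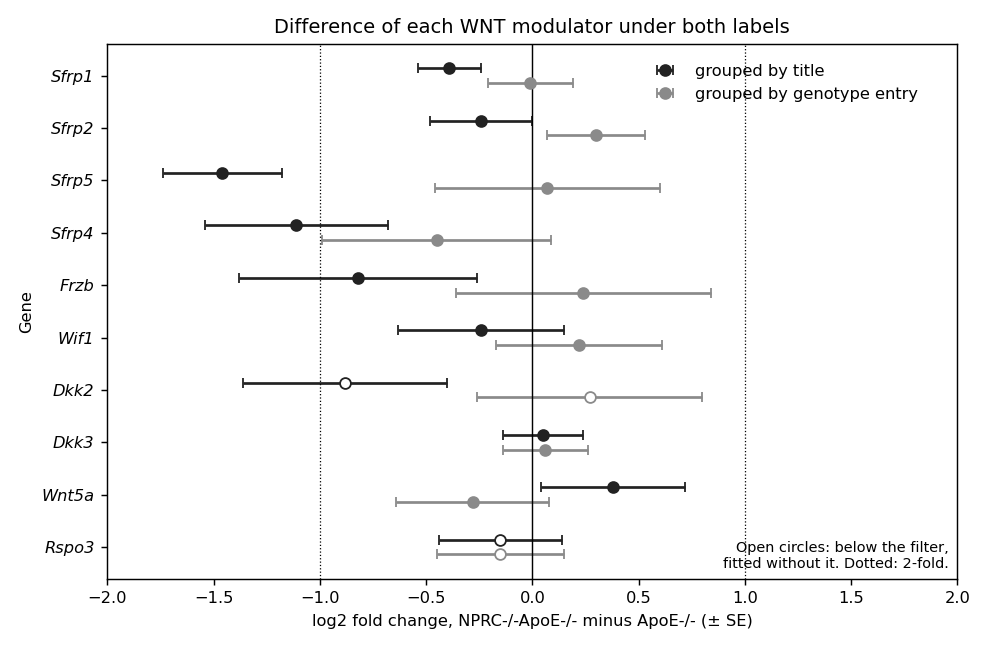
Log2 fold change of each member, NPRC-/-ApoE-/- minus ApoE-/- (x axis, ± standard error of the edgeR fit), by title (black) and by genotype entry (grey), with open circles for the 2 genes fitted without the filter. Sfrp5 and Sfrp4 lie beyond the dotted 2-fold line by title, at -1.46 and -1.11, and 0 members do by genotype entry.

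Grouped by genotype entry, 0 of the 8 tested members met the criterion, against 0.463% of all loci in either direction, with unadjusted p-values of 0.22 or more and an adjusted p of 1.0 for each (edgeR). DESeq2 and limma on log2(FPKM + 1) also gave 0. By that label 3 members were lower and 5 higher, with a median log2 fold change of 0.06.

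Across the 8 libraries, whichever label applies, members were compared in pairs by their log2 CPM. Of 45 pairs, 9 had an unadjusted permutation p-value under 0.05 for Pearson's r and 0 an adjusted one (Benjamini-Hochberg over the 45, smallest 0.10). The lowest p belonged to Frzb and Wnt5a, which ran in opposite directions (r = -0.89, exact permutation p = 0.0023, adjusted p = 0.10; Spearman's rho = -0.83, exact permutation p = 0.015, adjusted p = 0.21). Without the 2 libraries farthest from the median of Frzb, r was -0.87, and within the titled groups it was -0.87. Sfrp4 and Sfrp5 ran together (r = 0.80, exact permutation p = 0.011, adjusted p = 0.25; rho = 0.88, exact permutation p = 0.0072, adjusted p = 0.21), with r = 0.86 without the 2 farthest libraries and 0.70 within the titled groups. For Sfrp5 and Frzb r was 0.76 (exact permutation p = 0.036, adjusted p = 0.25; rho = 0.79, exact permutation p = 0.028, adjusted p = 0.21), 0.60 without the 2 farthest libraries and 0.98 within the titled groups. Sfrp2 and Dkk2 had r = 0.85 (exact permutation p = 0.017, adjusted p = 0.25; rho = 0.48, exact permutation p = 0.24, adjusted p = 0.68), which rested on 2 libraries, since r was 0.08 without them. For Sfrp2 and Sfrp4 the values were near 0 for Pearson's coefficient (r = -0.09, exact permutation p = 0.82, adjusted p = 0.92; rho = -0.33, exact permutation p = 0.43, adjusted p = 0.88).

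Of 18478 tested loci that carry a single gene name, those whose log2 CPM followed each member most closely over the 8 libraries are given as a description. For Sfrp5 they were Camk1d (r = 0.990), Pde7b (0.987) and Rbl1 (0.985), and for Sfrp4 Ssc5d (0.986), Pcdhb19 (0.975) and Csmd1 (0.974). For Frzb they were Farp1 (0.992), Washc3 (0.990) and Cdk4 (0.986). Dkk3 was followed by Uimc1 (0.994), Tmem43 (0.991) and Prss23 (0.984), Wnt5a by Gm3527 (0.986), Szrd1 (0.982) and 4931406P16Rik (0.981), and Wif1 by Ackr3 (0.959), Mir6975 (0.954) and Decr2 (0.912). For Sfrp1 they were Gm13940 (0.963), Fyn (0.940) and Gm37760 (0.935), and for Sfrp2 Rpl30-ps2 (0.959), Gm25973 (0.925) and Gm8186 (0.918). Each was picked as closest among 18478 loci over only 8 libraries, and none of these correlations was tested. The mean level of these loci ran from 0.851 FPKM (Rpl30-ps2) to 20.2 FPKM (Prss23), with Camk1d at 0.953 FPKM. The 8 libraries share the differences in tissue makeup described next.

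Levels of cell type marker lists differed between the same libraries. For scale, an unadjusted p-value under 0.05 by title (edgeR) occurred for 1462 loci that were lower and 1335 that were higher, of 20506 tested. Smooth muscle markers were abundant in every library (summed 6270 to 15200 CPM). By title, 10 of 10 adventitial fibroblast markers were lower, 4 of them with an unadjusted p-value under 0.05 (edgeR, median log2 fold change -0.85), and their summed level was 5580 to 16800 CPM in ApoE-/- and 3330 to 8750 CPM in NPRC-/-ApoE-/-. All 10 macrophage markers were lower as well (4 with an unadjusted p-value under 0.05, median -1.03, 1690 to 4410 against 1170 to 2380 CPM). All 10 smooth muscle markers were higher (9 with an unadjusted p-value under 0.05, median 0.64, 6270 to 8400 against 8050 to 15200 CPM), and the median of the endothelial markers was -0.12. Neuron and Schwann cell markers separated the titled groups, with a mean of 2.52 to 3.78 log2 CPM in ApoE-/- and 0.09 to 1.00 in NPRC-/-ApoE-/- (82.9 to 193 against 53.2 to 81.1 CPM summed over 10 markers). Of the 8 tested, 8 were lower and 6 had an unadjusted p-value under 0.05, but 4 of the 8 reached 1 FPKM only in libraries titled ApoE-/-, as did Dpp4 among the fibroblast markers, so these passed the filter through the group in which they were high. Adipocytes are the cell type best known for Sfrp5, and their list here mixes markers of white and of brown fat. Of these markers, 9 were tested and 0 had an unadjusted p-value under 0.05 (edgeR, median 0.21 by title, 480 to 1830 against 1170 to 1630 CPM). Cartilage-like markers had a median of -0.51 (6 of 10 tested, 129 to 316 against 135 to 208 CPM, Ucma at 0 in every library). Of the lymphocyte markers 4 of 10 were tested (median -1.12), of the skeletal and cardiac muscle markers 4 of 10 (0.99) and of the mesothelium markers 1 of 8 (-0.48). By genotype entry the medians were smaller in size: 0.12 for smooth muscle, -0.10 for fibroblasts, -0.16 for macrophages, -0.24 for neurons and Schwann cells and -0.05 for endothelium. For lymphocytes the median by that label was 0.04, for adipocytes -0.09, for cartilage-like cells -0.09, for skeletal and cardiac muscle -0.14 and for mesothelium -0.03. The part of these differences in those of Sfrp5, Sfrp4 and Sfrp1 was not tested.

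**Figure D4:**
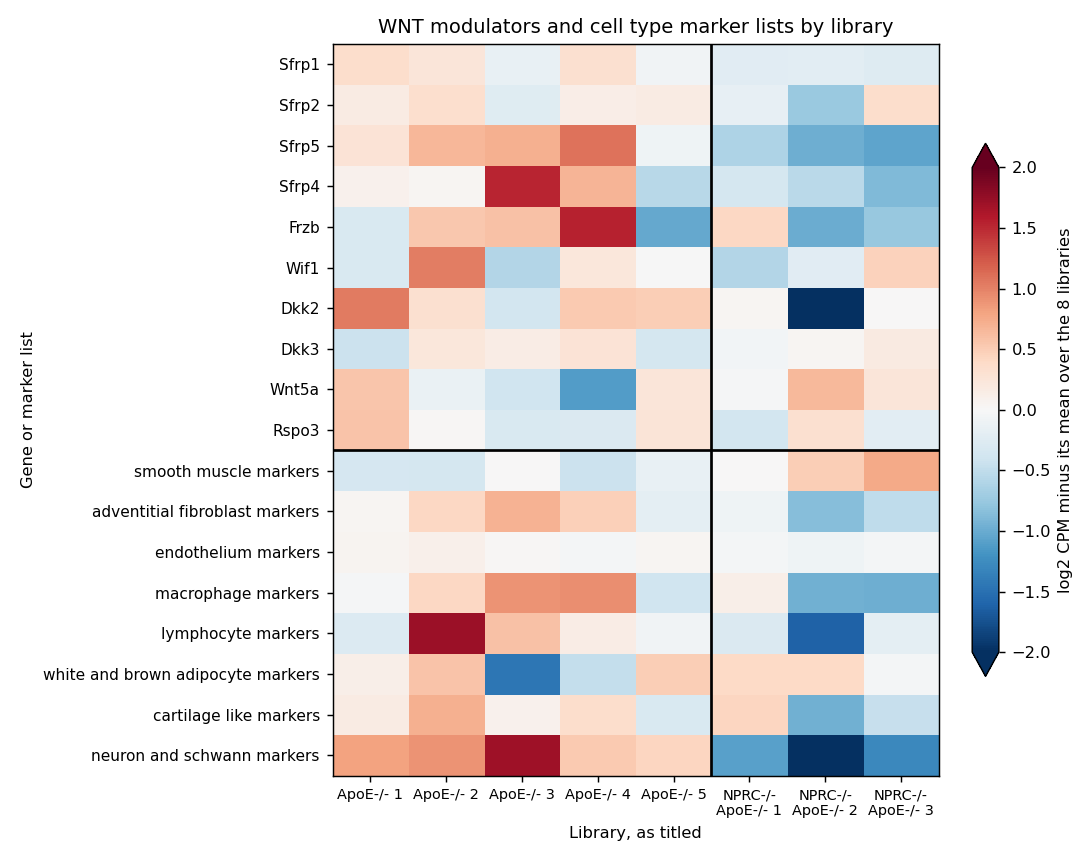
Log2 CPM of each member and mean log2 CPM of 8 marker lists, each minus its mean over the 8 libraries (colour), by library (x axis, titled ApoE-/- left of the vertical line and NPRC-/-ApoE-/- right of it). Sfrp5, Sfrp4, Sfrp1 and the neuron and Schwann, fibroblast, endothelium and lymphocyte markers are below their means in all 3 libraries titled NPRC-/-ApoE-/-. The smooth muscle row is highest in NPRC-/-ApoE-/- 3 (9.45 log2 CPM).

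The remaining pathway was covered by 88 other genes in 5 lists (secreted modulators, ligands and their secretion, receptors, intracellular components and target genes), of which 49 were tested. By title, 4 of the 49 met the criterion, 2 lower and 2 higher, against 2.39% of all loci lower and 1.08% higher, and the median log2 fold change was 0.04. The 4 were Sost, Lgr6, Ptk7 and Ccnd1, and 0 of them met it by genotype entry. With an unadjusted p-value under 0.05 alone (edgeR, by title), 2 of the 49 were lower and 7 higher. Of all 20506 tested loci, 1462 were lower and 1335 higher with such a p-value. Among other secreted modulators, Sost, which encodes the LRP antagonist sclerostin, stood at 50.0 FPKM on average, close to Dkk3. Sost had 16.83 to 66.02 FPKM in ApoE-/- and 39.70, 61.09 and 116.77 FPKM in NPRC-/-ApoE-/- 1 to 3, overlapping, with a log2 fold change of 1.05 by title (standard error 0.43, unadjusted p = 0.037, adjusted p = 0.34 with edgeR) and 0.77 by genotype entry. Of the 16 genes in that list 4 were tested, and 1 met the criterion.

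Of the receptors, 16 of 23 were tested. Lgr6, an R-spondin receptor, was higher by title (log2 fold change 1.07, standard error 0.34, unadjusted p = 0.011, adjusted p = 0.28 with edgeR), with 3.51 to 7.39 FPKM in ApoE-/- and 5.07 to 15.03 FPKM in NPRC-/-ApoE-/-. By genotype entry its log2 fold change was 0.03 (standard error 0.51). Ptk7, a WNT coreceptor, had a log2 fold change of -1.30 by title and -0.22 by genotype entry at a mean of 0.739 FPKM. It reached 1 FPKM in 3 libraries, all titled ApoE-/-, and so passed the filter through the group in which it was high. Fzd2 differed by less than 2-fold (0.35 by title, unadjusted p = 0.035 with edgeR, and 0.12 by genotype entry). The Frizzled receptor with the highest level was Fzd1, at 23.0 FPKM (log2 fold change -0.28 by title and 0.01 by genotype entry). The ligands and secretion factors held 0 genes with an unadjusted p-value under 0.05 among 5 tested of 20, and WNT carrier Wls had the highest level, 9.97 FPKM (log2 fold change -0.24 by title and 0.08 by genotype entry).

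Of 18 tested intracellular components, 0 met the criterion by title. Those with an unadjusted p-value under 0.05 in edgeR were Bcl9l (log2 fold change 0.39), Bcl9 (0.42) and Dvl3 (0.43), β-catenin cofactors and a Dishevelled scaffold. All 3 were higher, and 1335 of 20506 tested loci were higher with such a p-value. By genotype entry the log2 fold changes of Bcl9l, Bcl9 and Dvl3 were -0.05, 0.08 and 0.06. The locus of β-catenin itself, Ctnnb1, had the highest level (73.7 FPKM). It carries a second gene name, as do the tested loci of Dvl2 and Pygo2, so reads of each could not be assigned to 1 gene. Of 8 tested target genes of 17, Nkd1, a feedback inhibitor, was higher without overlap by title (0.85 to 1.55 against 1.95 to 2.32 FPKM, log2 fold change 0.82, adjusted p = 0.22 with edgeR), as were 3.72% of all tested loci on the log2 CPM scale. Ccnd1, which encodes cyclin D1, was lower without overlap (6.59 to 11.29 against 2.68 to 5.58 FPKM, log2 fold change -1.21, adjusted p = 0.26 with edgeR), as were 3.69%. By genotype entry the log2 fold change of Nkd1 was -0.05 and that of Ccnd1 -0.03. Axin2, the general reporter of β-catenin signalling, was low, at 0.72 to 1.84 FPKM. Its log2 fold change was -0.02 by title and 0.04 by genotype entry (standard error 0.29 for each). The activity of the pathway was not tested. By genotype entry 1 of the 49 genes met the criterion, against 0.463% of all loci, and 0 had an adjusted p under 0.05 with edgeR. It was Tcf7 (log2 fold change 1.11, standard error 0.32, 0.77 to 3.14 FPKM), a factor that is listed both as component and as target.

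**Figure D5:**
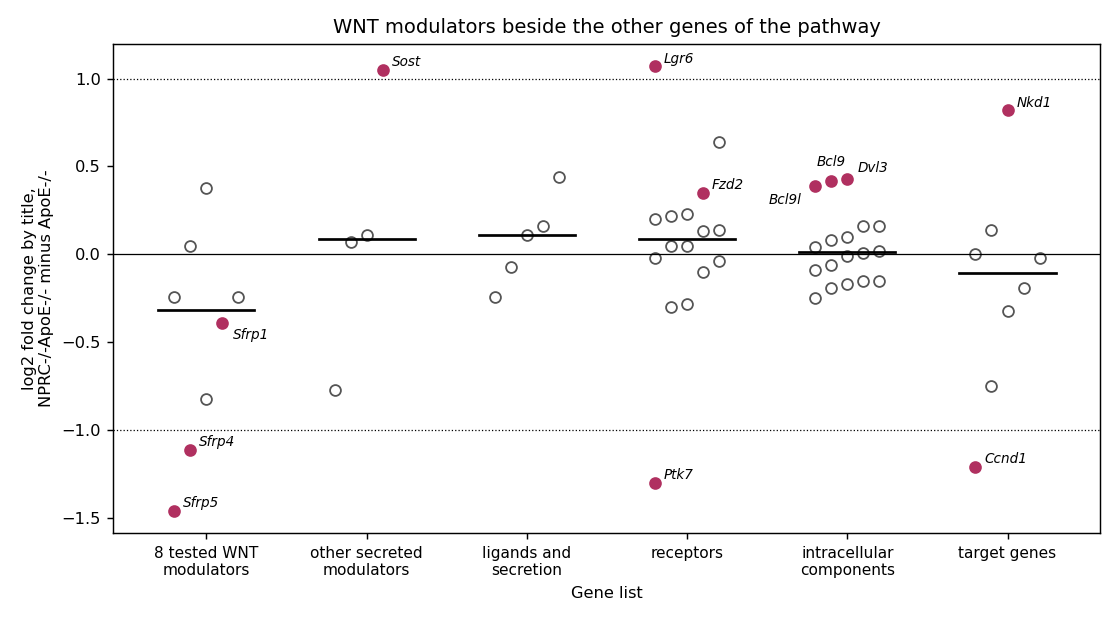
Log2 fold change by title (y axis, NPRC-/-ApoE-/- minus ApoE-/-) of the tested members and of the tested genes of 5 pathway lists (x axis). Filled points have an unadjusted p-value under 0.05 in edgeR, bars are medians and dotted lines mark 2-fold. The median of the members is -0.31, and that of the receptors is 0.09.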

How the data were processed

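Poly(A) RNA of 8 aortas was sequenced. According to the study and the submitters' processing notes, reads were trimmed (cutadapt 1.9), mapped with HISAT2 (build GRCm38) and assembled with StringTie. The authors deposited, for 48607 loci, whole-number counts without normalization and FPKM values normalized to length and mapped fragments. How counts were derived and whether strand was used are not given in the sources used here. Total counts were 62969165 to 86693276, and the number of libraries limits the precision.

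The 20506 loci that reached 1 FPKM in 3 or more libraries were fitted with edgeR 4.0.16 in R 4.3.3 (TMM, quasi-likelihood test, Benjamini-Hochberg adjustment over all of them, common biological coefficient of variation 0.327), without covariates, by title and by genotype entry. Scipy 1.17.1 gave permutation tests, and log2 CPM used a prior count of 2. The test was tested on simulated data. Members, lists and the naming rule were chosen with earlier results of these data known. Named were all members, the pathway genes with an unadjusted p-value under 0.05 by title (at most 4 per list), the highest gene per list and the 3 loci nearest to each member. Tcf7 by genotype entry and Axin2 were named after their values were seen. Alternatives were DESeq2 1.42.0, limma 3.58.1 on log2(FPKM + 1) or log2(FPKM + 0.1), array quality weights, other scaling, other filters, summed loci, a replicate block, each library left out and, chosen after seeing the data, loci with a gene name only.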

Additional observations from a re-analysis of the deposited data

Results flagged for a closer look

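Among the 64 groups of 5 libraries examined (10 members, 10 marker lists and the named pathway genes, each by title and by genotype entry), 5 held a library whose gap to its nearest neighbour took up an unusual part of the range of the group. Chance flags about 1 in 20 such groups, or 3.2 of 64. Groups of 3 libraries were not examined.

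For Wif1, the highest of the 5 libraries with the genotype entry ApoE-/- was the one titled ApoE-/- 2, at 3.06 log2 CPM, against 1.80 in the next. The mean of the mesothelium markers was highest in the same library, at 1.31 log2 CPM, both among the 5 titled ApoE-/- (next -1.44) and among the 5 with that genotype entry (next -1.92). Adipocyte markers were lowest in ApoE-/- 3, at 4.54 log2 CPM, with 6.10 in the next of the 5 with the genotype entry ApoE-/-, and this was the library with the highest Sfrp4. Lgr6 was highest in the library titled NPRC-/-ApoE-/- 2, at 8.97 log2 CPM, against 7.39 in the next with that entry.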

How the results depend on the processing

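The number of members meeting the criterion by title, 2 as reported, was 0 by genotype entry. It was 1 with limma on log2(FPKM + 1) or on log2(FPKM + 0.1), and 1 to 2 with a library left out. It was 0 with a mean of at least 5 FPKM, which left Sfrp5 untested and Sfrp4 at a log2 fold change of -0.98. With the replicate block in the 6 libraries numbered 1 to 3 it was 1, and 2 in the same 6 without it. The correlation of same-numbered libraries was -0.314, -0.113 and 0.007, against -0.16 to 0.23 for differently numbered ones. This gave no sign of pairing by number, but so few libraries cannot exclude it. With array quality weights the number of members meeting the criterion was 2, but Frzb (-1.08) took the place of Sfrp4 (-0.99). Members with an adjusted p under 0.05 numbered 1 with DESeq2 and 1 with array quality weights. By genotype entry, members meeting the criterion numbered 0 to 1 with a library left out. The 4 pathway genes meeting it became 1 by genotype entry, 2 with log2(FPKM + 0.1), 1 with log2(FPKM + 1), 2 with a mean of at least 5 FPKM, 8 without a filter, and 1 to 5 with a library left out. Pairs of members with an adjusted p under 0.05 stayed at 0 on log2(FPKM + 1).

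The sign by title turned by genotype entry for Dkk2 (0.27), Frzb (0.24), Sfrp2 (0.30), Sfrp5 (0.07), Wif1 (0.22) and Wnt5a (-0.28). In the 4 libraries with agreeing labels, ApoE-/- 1 to 3 against NPRC-/-ApoE-/- 3 alone, it turned for Sfrp2 (0.24) and Wif1 (0.21). Sfrp5 had -1.64 there and Sfrp4 -1.60, without a test. These values rest on NPRC-/-ApoE-/- 3, the lowest of all 8 libraries for both (1.18 and 12.82 FPKM). With a library left out, Dkk3 ranged from -0.04 (without ApoE-/- 1) to 0.13 and was -0.02 without ApoE-/- 5, Sfrp2 ranged from -0.54 to 0.02 (without NPRC-/-ApoE-/- 2) and Wif1 from -0.57 to 0.08 (without ApoE-/- 2). The adjusted p of Sfrp5 ran from 0.00015 to 1.0 and that of Sfrp4 from 0.085 to 1.0 over the alternatives. The causes were not tested.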
